A study of Rattus norvegicus with 16 samples.

Results

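Gene expression in adipose tissue was compared between 5 male Brown Norway rats with exposure to house dust mite (HDM rats) and 3 males that had saline alone (control rats), on 8 of the 16 arrays of the series. The other 8 arrays hold lung RNA. The arrays were chosen by their labelled tissue, and no measured value entered this choice. All rats were 7 weeks old as given for the animals entering the procedure, and tissue was taken after the injections and challenges. HDM rats received 45 µg of HDM in the adjuvant Al(OH)3 under the skin once per week for 3 weeks, followed by 120 µg of HDM in saline through the nose 3 times per week for 3 weeks. Control rats received the same Al(OH)3 with saline and then saline through the nose, so the adjuvant was shared by both groups. Each array held the RNA of 1 rat. The labels call the tissue adipose tissue and name no fat depot.

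White adipose tissue stores triglycerides in adipocytes and releases them as fatty acids when hormones activate lipolysis. Between the adipocytes lie fibroblast-like precursors, vessels and resident macrophages, and the tissue secretes hormones such as leptin and adiponectin. Adipose tissue also responds to glucocorticoids and carries its own circadian clock, and leukocytes can enter it during inflammation. The question of the comparison was which adipose genes differed between rats with HDM-induced allergic airway inflammation and control rats.

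Levels are given as log2 signal relative to the 75th percentile of the same array, so that 0 is the level of that percentile, and a difference of 1 is a 2-fold difference. A probe is called well above background where the scanner software marked it so. Of 45598 probes for rat transcripts, 23293 were well above background on every array of at least 1 group and were tested, and they covered 10882 gene symbols. The signal at that percentile ranged from 168 to 240 in HDM rats and from 111 to 227 in control rats, and between 50.9% and 60.2% of the probes were well above background. The adipocyte markers were among the highest values on every array. Adipoq, which encodes adiponectin, was between 8.45 and 9.34, and Fabp4, the fatty acid carrier of adipocytes, was between 8.08 and 9.04.

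Before the comparison, a set of transcripts known from another organ has to be described. Genes of the epididymis, the duct in which sperm mature, were high in HDM rat 1 and in control rat 1. On these 2 arrays all 20 probes for 19 such genes were well above background, and each probe was higher there than on the other 6 arrays. Lcn5, which encodes an epididymal retinoid-binding lipocalin, was at 9.59, −5.06, −4.62, −2.54 and 1.80 in HDM rats 1 to 5, and at 10.48, −2.49 and 4.82 in control rats 1 to 3. HDM rat 1 and control rat 1 were therefore the highest, and control rat 3 and HDM rat 5 lay in between. Crisp1, a secreted epididymal protein that binds sperm, was at 6.71 in HDM rat 1 and 6.22 in control rat 1, and it was well above background on no other array. Of the 20 probes, 10 were well above background on no other adipose array and 12 on no lung array. Among 12 probes of testis and sperm genes, 8 were higher on the same 2 arrays than on the other 6. Each group thus held 1 such array, and each call is also given without both.

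**Figure D1:**
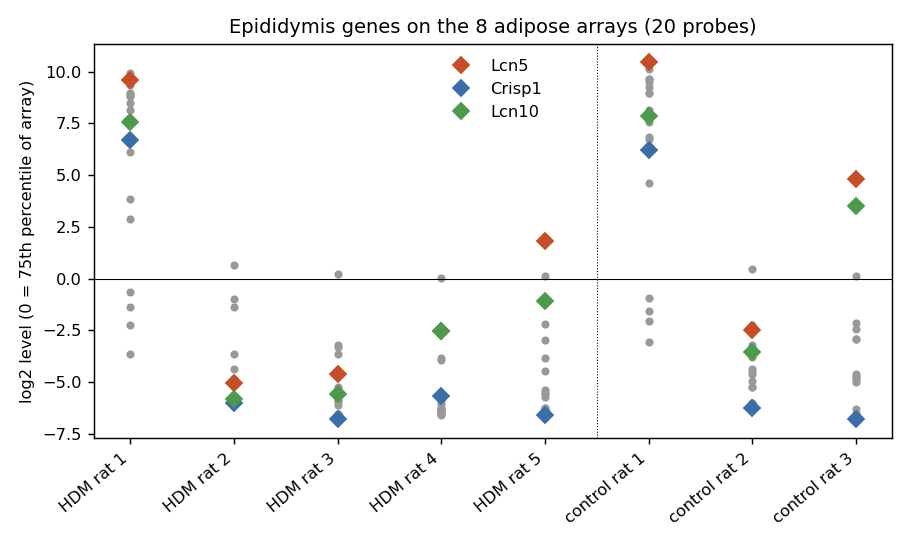
Levels of 20 probes for epididymis genes on the 8 adipose arrays, on the log2 scale relative to the 75th percentile of each array (0). Each point is 1 probe on 1 array, with Lcn5, Crisp1 and Lcn10 in color. Lcn5 stands at 9.59 in HDM rat 1 and 10.48 in control rat 1, and control rat 3 (4.82) and HDM rat 5 (1.80) lie between these and the rest.

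The same 2 arrays led the variation between rats. The first principal component carried 52.8% of the variance, with scores of 75.6 for HDM rat 1 and 106 for control rat 1 and scores from −57.2 to −0.48 for the other rats. HDM rat 2 stood apart in another way, with 1224 outlier spots against 355 to 444 on the other adipose arrays. On it 349 probes were higher and 262 lower by more than 1 log2 unit than on every other array, against 347 and 306 on control rat 1. Among the higher ones on HDM rat 2 was Plin5, a lipid droplet protein, at 1.04 in HDM rat 2 and between −4.90 and −3.18 elsewhere.

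HDM and control rats differed at 5 probes by limma, at an adjusted p below 0.05 and a fold change above 1.5. This is 0.0215% of the tested probes. By gene symbol, 4 of 10882 were called, or 0.0368%. S100a9 and Stfa2l2 rose, and Fkbp5, the long non-coding RNA gene LOC102547513 and a probe without a gene name fell. All 5 had an adjusted p of 0.0195, and the next smallest was 0.0837. Without an adjustment, 2351 probes had a p below 0.05, of which 634 were higher and 1717 lower in HDM rats. The excess of lower probes depended on the scaling: of the probes past 1.5-fold 76.0% were lower, against 60.1% after quantile normalization and 27.2% under median scaling. It also depended on the filter, at 64.3% for probes well above background on all 8 arrays and 82.5% without a filter. Of the tested probes, 2242 passed the filter only through the control rats and 530 only through the HDM rats. The groups did not overlap at 7.06% of the tested probes.

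**Figure D2:**
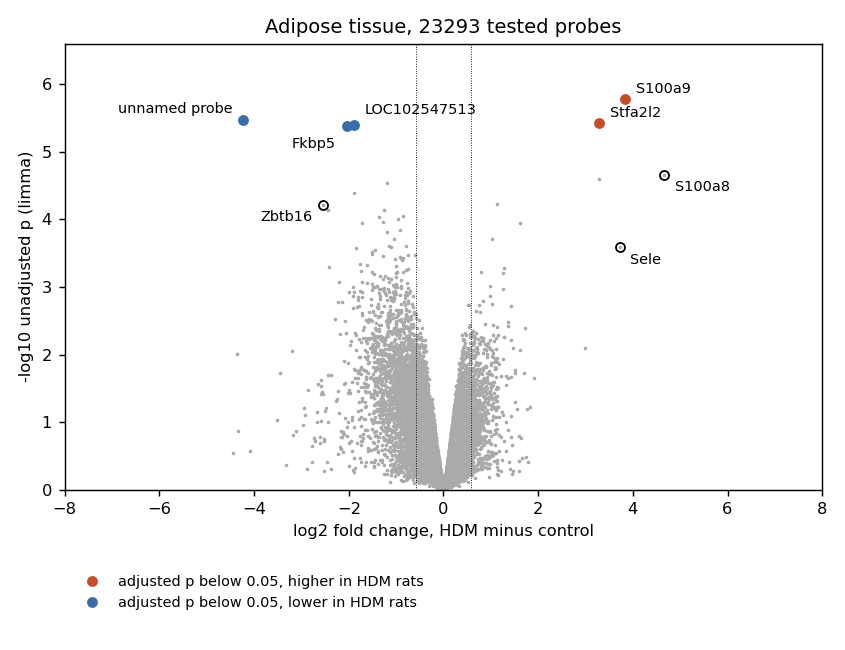
The log2 fold change (HDM minus control) of 23293 probes against −log10 of the unadjusted p from limma, with dotted lines at a 1.5-fold change. The 5 called probes are colored (2 higher, 3 lower), and S100a8, Zbtb16 and Sele, which missed the threshold, are circled.

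The 5 calls depended on which rats were included. In all of the 28 other settings tried, each of the 5 probes that was tested kept its direction, but 14 of these settings called no probe. Among the fits that left out 1 rat, only the one without HDM rat 1 made any calls, 4 in number, and those without any other single rat (HDM rats 2 to 5 and control rats 1 to 3) called none. Without HDM rat 1 and control rat 1, no probe was called by limma, the smallest adjusted p was 0.0662, and 1965 probes had an unadjusted p below 0.05. With the mean level of 5 tested epididymis markers as a covariate, 10 probes were called, 2 higher and 8 lower, among them all 5 named above. When arrays were scaled to their median, 6 probes were called, 4 higher and 2 lower, and the median log2 fold change of all probes moved from 0.00 to 0.30.

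S100a9 rose 14.2-fold. Its product forms calprotectin with that of S100a8, the abundant calcium-binding protein of neutrophils and of activated monocytes. S100a9 was at 1.24, 1.61, 1.98, 0.84 and 0.74 in HDM rats 1 to 5, and at −2.13, −2.61 and −2.91 in control rats 1 to 3. The lowest HDM rat was thus above the highest control rat by more than the spread in either group, with a log2 fold change of 3.83 ± 0.32 (SE). Without HDM rat 1 and control rat 1 the log2 fold change was 4.05 ± 0.38 (adjusted p = 0.0744). It was 2.39 ± 0.25 with normexp background correction and quantile normalization (adjusted p = 0.0679).

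S100a8 showed the largest log2 fold change of the tested list genes, 4.66 ± 0.54 (SE), and missed the threshold at an adjusted p of 0.0837. It was at 0.97, 0.92, 2.02, 0.39 and 0.13 in HDM rats 1 to 5, and at −4.85, −2.75 and −3.73 in control rats 1 to 3. All 5 HDM rats lay above the 3 control rats. Control rat 1 was not well above background, so the probe passed the filter through the HDM rats alone. The fold change and its p thus rest partly on background signal. With normexp background correction and quantile normalization, the log2 fold change of S100a8 was 2.35 ± 0.31 (adjusted p = 0.166). Without HDM rat 1 and control rat 1 its log2 fold change was 4.10 ± 0.57 (adjusted p = 0.249).

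Stfa2l2 encodes a member of the stefin A family of cysteine protease inhibitors, whose genes resemble one another closely, so its probes may also bind related transcripts. It was at −2.29, −1.53, −2.32, −2.23 and −2.23 in HDM rats 1 to 5, and at −4.88, −6.11 and −5.21 in control rats 1 to 3. It was well above background in 5 HDM rats and in no control rat, so only a bound can be given, and HDM rats were higher by at least 3.87-fold. The adjusted p was 0.0195, or 0.0744 without HDM rat 1 and control rat 1. It comes from the limma fit to all levels, with background signal in control rats, and does not test the bound. The probe passed the filter through the HDM rats alone. Both other probes of the gene were likewise well above background in no control rat, and were at least 3.43-fold and 2.46-fold higher in HDM rats, with adjusted p of 0.0842 and 0.387.

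Sele encodes E-selectin, the endothelial adhesion molecule on which leukocytes roll. It was at −2.16, −1.50, −1.99, −3.59 and −4.17 in HDM rats 1 to 5, and between −6.87 and −6.03 in control rats. It was well above background in every HDM rat and in no control rat, so its probe passed the filter through the HDM rats alone. HDM rats were higher by at least 2.62-fold. The limma fit to all levels, which does not test this bound, gave an adjusted p of 0.219, or 0.420 without HDM rat 1 and control rat 1.

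**Figure D3:**
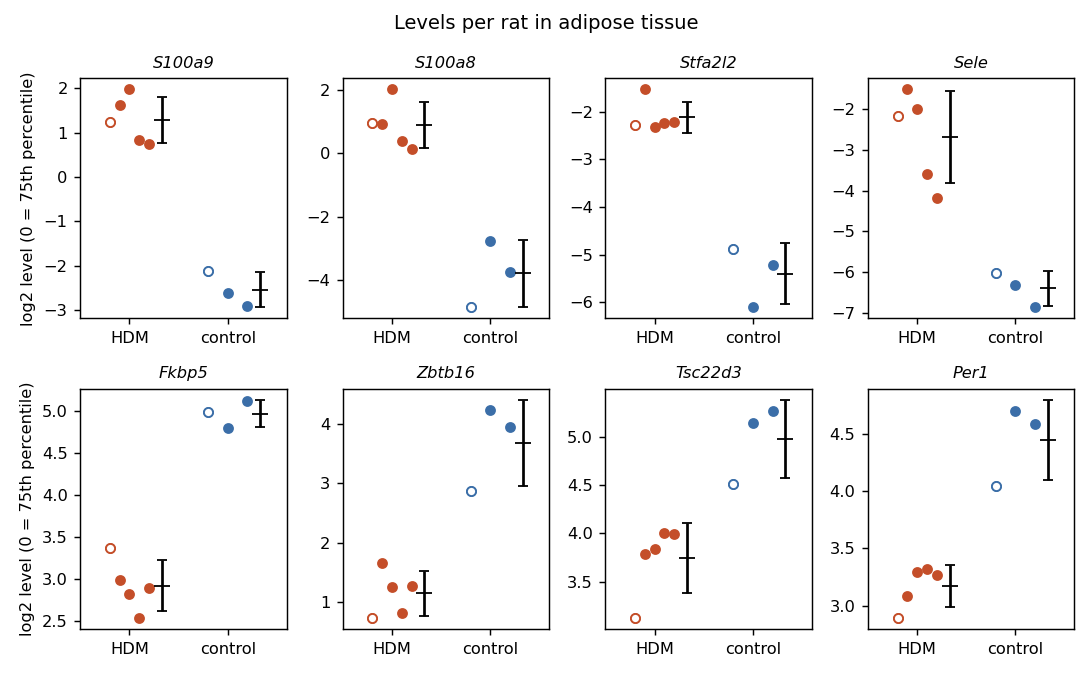
Levels of 8 genes in each rat, on the log2 scale relative to the 75th percentile of the array, with the mean and SD beside the points. Open points are HDM rat 1 and control rat 1, the arrays with epididymis transcripts. S100a9 lay from 0.74 to 1.98 in HDM rats and from −2.91 to −2.13 in control rats. Each gene is shown by 1 probe, and at that probe the 5 HDM rats and the 3 control rats do not overlap. All of these genes but Tsc22d3 met a naming rule that required this, and 7.06% of all tested probes did not overlap.

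Among 20 neutrophil genes, 6 were tested, and S100a9 was the called one. The median log2 fold change of the 6 was 0.81, against 0.04 over all tested symbols. It was 0.42 without control rat 1 and 0.40 with array weights. Cxcr2, the neutrophil chemokine receptor, differed by 0.61 ± 0.45 on the log2 scale (adjusted p = 0.648). Fpr1, the formyl peptide receptor, differed by −0.17 ± 0.42 (adjusted p = 0.903). The granule and receptor genes Mmp8, Elane, Ctsg, Ngp, Cxcr1 and Prok2 were well above background on none of the 8 arrays. Lcn2, listed both as a neutrophil granule gene and as a glucocorticoid-induced gene, was at 7.33 in HDM rat 1 and 8.69 in control rat 1, at 4.08 in control rat 3, and between 0.84 and 2.29 on the other arrays. In bulk tissue, fewer cells of a type and less RNA per cell cannot be told apart.

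Fkbp5 fell by 2.04 ± 0.19 (SE) on the log2 scale, which is 4.13-fold. Its product is a co-chaperone that restrains the glucocorticoid receptor, and its gene is induced by that receptor. Fkbp5 was at 3.37, 2.99, 2.82, 2.54 and 2.90 in HDM rats 1 to 5, and at 4.98, 4.80 and 5.12 in control rats 1 to 3. The groups were far apart relative to their spread, also without HDM rat 1 and control rat 1 (−2.15 ± 0.17, adjusted p = 0.0674).

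Glucocorticoids act through a nuclear receptor that switches on a common group of genes in many tissues, among them feedback regulators, anti-inflammatory factors and metabolic enzymes. Of 17 tested genes of this group, 16 had a negative log2 fold change, 1 was called (Fkbp5), and the median was −0.62. At an unadjusted p below 0.05 with a fold change above 1.5, 6 were lower and none was higher, where 3.78% of all tested symbols were lower and 1.37% higher. The list was chosen with earlier results of these data known, so this count does not test the group. Rasd1, described below as induced by dexamethasone, is not on the list and was higher in HDM rats. Without HDM rat 1 and control rat 1 the median was −0.97, and under median scaling it was −0.33.

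Zbtb16, which encodes the transcription factor PLZF, was at 0.73, 1.66, 1.25, 0.82 and 1.26 in HDM rats 1 to 5, and at 2.87, 4.24 and 3.95 in control rats 1 to 3. Its log2 fold change was −2.54 ± 0.34 (SE), with an adjusted p of 0.129, and its other probes gave −2.44 and −2.20. All HDM rats were below all control rats. Zbtb16 passed the threshold when p-values were adjusted only over probes past 1.5-fold (adjusted p = 0.0177), with array weights (adjusted p = 0.00487), with the epididymis score (adjusted p = 0.0196) and without HDM rats 1 and 2 and control rat 1 (adjusted p = 0.0487). The first of these settings picks probes by the same fold change that is tested, so its adjusted p is too small by construction. Zbtb16 missed the threshold in every other setting tried, among them the fit without HDM rat 1 and control rat 1 (−2.84 ± 0.24, adjusted p = 0.0674) and median scaling (adjusted p = 0.367). So it did with an unpaired t-test adjusted over the probes tested here, which are not the study's own set (adjusted p = 0.407).

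Tsc22d3, the anti-inflammatory leucine zipper protein GILZ, was between 3.12 and 4.01 in HDM rats (median 3.84) and at 4.52, 5.14 and 5.27 in control rats 1 to 3, which is −1.23 ± 0.25 on the log2 scale (adjusted p = 0.290). Glul, the glutamine synthetase gene, had −0.62 ± 0.20, and Errfi1, an inhibitor of epidermal growth factor receptor signaling, had −0.88 ± 0.33, with adjusted p of 0.408 and 0.456. Mt2A, a metallothionein gene, was the gene of the list with a positive value (0.69 ± 0.39, adjusted p = 0.577). Klf9 and Lcn2 varied with arrays that stand apart. Klf9 was at −0.01 in HDM rat 2 and between 2.70 and 4.12 on the other arrays, and Lcn2 followed the epididymis genes, as given above.

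Both other probes that fell have no characterised gene. Their 60-base sequences are shown to say which transcripts the probes were made to bind, and each is written in lower case, 5′ to 3′, as the array design gives it.
Probe without a gene name: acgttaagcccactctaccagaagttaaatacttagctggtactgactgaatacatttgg
Probe of LOC102547513: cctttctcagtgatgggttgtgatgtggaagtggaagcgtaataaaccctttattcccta
The probe without a gene name was at −4.55, −5.67, −4.84, −5.17 and −4.94 in HDM rats 1 to 5, and at 0.17, −1.32 and −1.26 in control rats 1 to 3. It was well above background in 3 control rats and in no HDM rat, so it passed the filter through the control rats alone. It was at least 11-fold lower in HDM rats. Its adjusted p was 0.0195, or 0.0662 without HDM rat 1 and control rat 1. This p comes from the limma fit to all levels, with background signal in HDM rats, and does not test the bound. The probe of LOC102547513 was between −3.33 and −2.64 in HDM rats (median −2.90) and at −1.0, −1.09 and −1.09 in control rats 1 to 3, a log2 fold change of −1.90 ± 0.18 (SE). Without HDM rat 1 and control rat 1 it was −1.78 ± 0.16 (adjusted p = 0.0744).

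Other genes whose groups did not overlap did not pass the adjusted threshold. On the higher side were Arid5b, a transcription factor that takes part in adipogenesis (1.12 ± 0.15, adjusted p = 0.129), and Rasd1, a Ras-related protein induced by dexamethasone (1.62 ± 0.24, adjusted p = 0.139). The other tested probe of Rasd1 had 1.06 ± 0.29 with overlapping groups (adjusted p = 0.387). Il1rn, the secreted antagonist of the interleukin-1 receptor, had 1.29 ± 0.23 and Slc29a4, a monoamine transporter gene, 1.25 ± 0.23, both with an adjusted p of 0.274. Zfp608 had 0.79 ± 0.15. On the lower side were Sphk1, which makes sphingosine 1-phosphate (−1.19 ± 0.14, adjusted p = 0.0847), and Aacs, which activates acetoacetate for lipid synthesis (−1.37 ± 0.19, adjusted p = 0.139). Phactr3 was well above background in no HDM rat and at least 1.93-fold lower in HDM rats. Spag1, Rprml, Gpr52 and Gnb3 had log2 fold changes of −1.26, −1.71, −0.97 and −1.05, with adjusted p between 0.132 and 0.195. Gpr52 was well above background in 4 HDM rats and Gnb3 in 1, so the HDM levels of Gnb3 lay mostly in the background. Phactr3, Gpr52 and Gnb3 passed the filter through the control rats alone.

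The circadian clock is a loop in which Bmal1 with Clock or Npas2 switches on the Per and Cry genes, whose products then block it. Of 14 tested clock genes none was called. Bmal1 was between −0.89 and −0.27 in HDM rats (median −0.60) and at −1.57, −1.78 and −1.27 in control rats 1 to 3, a log2 fold change of 0.98 ± 0.20 (adjusted p = 0.290). Npas2 had 0.97 ± 0.27 (adjusted p = 0.385). Per1 was between 2.89 and 3.32 in HDM rats (median 3.27) and at 4.04, 4.70 and 4.58 in control rats 1 to 3, with −1.27 ± 0.18 (adjusted p = 0.139), and it is also a target of the glucocorticoid receptor. The other tested probe of Per1 had −1.07 ± 0.35 with overlapping groups (adjusted p = 0.408). Per2 and Cry1 had −1.13 ± 0.35 and −0.74 ± 0.28, with adjusted p of 0.401 and 0.452. At an unadjusted p below 0.05 with a fold change above 1.5, 2 of the 14 clock genes were thus higher and 3 lower, where 1.37% of all tested symbols were higher and 3.78% lower. This list too was chosen with earlier results of these data known. Clock, Nr1d1, Dbp and Tef had log2 fold changes of −0.41, 0.40, −0.25 and −0.49. The median of the list was −0.24, and 0.06 under median scaling.

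Of 24 tested adipocyte genes none was called, and 22 had a positive log2 fold change, with a median of 0.37. The mean level of the list was 4.35 in control rat 1 and 5.18 in HDM rat 1, and between 5.33 and 5.82 in the other rats, and the median was 0.09 without both rats and 0.01 without control rat 1 alone. Adipoq and Plin1, the coat protein of the lipid droplet, had 0.10 ± 0.22 and 0.35 ± 0.30, with overlapping groups. Adrb3, the adrenergic receptor through which noradrenaline starts lipolysis, was at 4.28, 5.95, 5.06, 4.69 and 5.01 in HDM rats 1 to 5, and at 3.40, 3.91 and 3.85 in control rats 1 to 3. All HDM rats were higher, by 1.28 ± 0.34 (SE), with an adjusted p of 0.385, and by 1.30 ± 0.34 without HDM rat 1 and control rat 1.

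The lipolysis and fatty acid oxidation list had 18 of 19 members with a positive log2 fold change and a median of 0.30, or 0.18 without HDM rat 1 and control rat 1 and 0.14 without control rat 1 alone. None was called. Pnpla2, which encodes the triglyceride lipase ATGL, was between 6.08 and 6.71 in HDM rats (median 6.31) and at 3.79, 6.0 and 5.92 in control rats 1 to 3. Its log2 fold change was 1.11 ± 0.48 with all rats (adjusted p = 0.494) and 0.45 ± 0.18 without HDM rat 1 and control rat 1. Lipe, the hormone-sensitive lipase gene, and Mgll, the monoglyceride lipase gene, had 0.64 ± 0.45 and 0.39 ± 0.33. Ucp3, a mitochondrial carrier gene, had 1.36 ± 0.33 (adjusted p = 0.351).

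Genes of fatty acid and triglyceride synthesis had a median of −0.08 over 19 tested members, none of them called, and of −0.26 without HDM rat 1 and control rat 1. Fasn, the fatty acid synthase gene, had −0.58 ± 0.26, Acly, which supplies acetyl-CoA, −0.61 ± 0.28, and Acaca −0.31 ± 0.27. Lpin1, a phosphatidate phosphatase gene, was between −1.61 and −0.72 in HDM rats (median −1.13) and at −0.37, −0.21 and −0.52 in control rats 1 to 3, with −0.78 ± 0.20 (adjusted p = 0.374). Of 11 tested insulin signaling genes, Insr and Irs1 had −0.22 ± 0.28 and −0.19 ± 0.27. Irs2, the insulin receptor substrate whose gene responds to fasting, was at 1.56, 1.71, 2.01, 1.38 and 1.34 in HDM rats 1 to 5, and at −0.24, 0.76 and 0.91 in control rats 1 to 3. The groups did not overlap, and the log2 fold change was 1.12 ± 0.28 (adjusted p = 0.374), or 0.77 ± 0.21 without HDM rat 1 and control rat 1. The median of the list was −0.14.

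The secreted factors of fat include hormones of appetite and insulin action. Of 16 tested adipokine genes none was called, and 9 had a positive and 7 a negative log2 fold change, with a median of 0.14, or −0.02 without control rat 1. Lep, which encodes leptin, was between 6.70 and 7.49 in HDM rats (median 6.75) and at 5.22, 7.12 and 6.72 in control rats 1 to 3, with 0.62 ± 0.42 (adjusted p = 0.620) and 0.12 ± 0.27 without HDM rat 1 and control rat 1. Retn, the resistin gene, had −0.02 ± 0.16. Of 12 brown and beige adipocyte genes, 4 were tested (Cidea 0.62 ± 0.38, Cox8b −0.40 ± 0.92, Ebf2 0.74 ± 0.37 and Tbx1 −1.29 ± 0.96), with a median of 0.11. Ucp1, the uncoupling protein of brown fat, was well above background on 6 of the 8 arrays and was not tested.

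None of the stromal genes was called. The preadipocyte and fibroblast list had a median of 0.20 over 17 tested members, with Pdgfra at 0.15 ± 0.36, Dcn at 0.22 ± 0.35 and Pi16 at 0.21 ± 0.26 as log2 fold changes. The extracellular matrix list had a median of 0.14 over 19 members. The collagen genes Col1a1, Col1a2 and Col3a1 had 0.06 ± 0.43, −0.13 ± 0.38 and −0.17 ± 0.34, and the membrane protease gene Mmp14 had 0.71 ± 0.20 (adjusted p = 0.387). Without control rat 1 the medians of both lists were −0.06 and −0.18, and without HDM rat 1 and control rat 1 they were 0.12 and 0.02. The endothelial list had a median of 0.16 over 15 members, and of −0.04 without HDM rat 1 and control rat 1. Its structural markers Pecam1, Cdh5 and Vwf had 0.03 ± 0.23, 0.12 ± 0.31 and −0.04 ± 0.16, and Sele, described above, was the exception in size. Pericyte and smooth muscle genes had a median of −0.20 over 12 members, with the smooth muscle actin gene Acta2 at −0.77 ± 0.32 (adjusted p = 0.477). Mesothelial genes, which mark the lining of the body cavity, had a median of −0.30 over 9 members and varied between rats, with Msln between 3.92 and 7.29.

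All 20 tested macrophage and monocyte genes had a positive log2 fold change, and none was called. Over all tested symbols 55.9% were positive. The median was 0.64 with all rats, 0.37 without control rat 1, 0.52 without HDM rat 1 and control rat 1, and 0.34 with the epididymis score as a covariate. Cd14, the co-receptor for lipopolysaccharide, was at 3.01, 3.65, 3.91, 3.43 and 3.76 in HDM rats 1 to 5, and at 1.14, 3.01 and 2.86 in control rats 1 to 3, so that HDM rat 1 and control rat 2 nearly met. Its log2 fold change was 1.21 ± 0.43 (adjusted p = 0.432), and 0.75 ± 0.16 without HDM rat 1 and control rat 1. Adgre1 (F4/80), Cd68 and Csf1r had 0.73 ± 0.43, 0.77 ± 0.39 and 0.48 ± 0.45. The complement genes C1qa, C1qb and C1qc, made by resident macrophages, had 0.77, 0.85 and 0.95. The mean of the list was lowest in control rat 1 (1.59) and HDM rat 1 (2.04) and between 2.38 and 3.33 in the other rats.

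Of 17 tested cytokine and chemokine genes, with a median of 0.40, none was called. Il1b, which encodes interleukin-1β, was between −1.12 and −0.14 in HDM rats (median −0.66) and at −1.53, −1.40 and −1.18 in control rats 1 to 3, with 0.73 ± 0.23 (adjusted p = 0.407). The monocyte attractants Ccl2 and Ccl7 had 1.13 ± 0.43 and 1.32 ± 0.46, with adjusted p of 0.460 and 0.432. Ccl2 was at 1.07, 1.49, 3.17, 2.30 and 2.16 in HDM rats 1 to 5, and at 0.67, 1.21 and 0.84 in control rats 1 to 3. Only HDM rat 1 overlapped the control rats. Ccl5, a chemokine of T cells, had −0.68 ± 0.25, and Tnf had 0.50 ± 0.48 with overlapping groups. Il6 and Ptgs2 were well above background on none of the 8 arrays. With the epididymis score as a covariate the median of the list was 0.01, and without control rat 1 it was 0.16.

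Of 20 T and NK cell genes 13 were tested. Of these 13, 11 had a negative log2 fold change, the median was −0.29 and none was called. Under median scaling the median was 0.00. Cd8a, the co-receptor of cytotoxic T cells, was at −3.85, −5.68, −4.91, −3.70 and −4.16 in HDM rats 1 to 5, and at −2.33, −3.32 and −1.58 in control rats 1 to 3. The groups did not overlap, and the log2 fold change was −2.05 ± 0.53 (adjusted p = 0.385), with 2 HDM rats well above background. Gzmb, the granzyme B gene, had −1.37 ± 0.36 (adjusted p = 0.385), also with 2 HDM rats well above background. Cd8a and Gzmb thus passed the filter through the control rats alone. Their fold changes, p and lack of overlap rest partly on background signal in HDM rats. Cd3d, Cd3e and Cd3g, the chains of the T cell receptor complex, had 0.18 ± 0.41, −0.44 ± 0.28 and −0.28 ± 0.26. The B cell list had a median of 0.10 over 5 tested members (Cd79b −0.03 ± 0.14, Cd22 0.30 ± 0.23), and the MHC class II list 0.25 over 9, with RT1-Da at 0.43 ± 0.29.

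Type 2 immunity drives the allergic airway response through eosinophils, mast cells and the cytokines encoded by Il4, Il5 and Il13. In the adipose tissue, 16 of 25 genes of this kind were tested, none was called, and the median was 0.16, or −0.12 without HDM rat 1 and control rat 1. Il4, Il5ra and Epx, the eosinophil peroxidase gene, were well above background on none of the arrays. Il13 was so on 1 array and Il5 on 5. Prg2, the eosinophil major basic protein gene, had −0.20 ± 0.24, and the mast cell protease genes Cpa3 and Cma1 had 0.72 ± 0.79 and 0.17 ± 0.58.

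None of the genes of the remaining lists was called. Of 5 tested erythrocyte genes all had positive log2 fold changes, with a median of 0.73 with all rats, 0.17 without HDM rat 1 and control rat 1 and 0.07 without control rat 1 alone (Hbb 0.75 ± 0.26, adjusted p = 0.423). The skeletal muscle list had a median of −0.24 over 4 members, the interferon-stimulated list −0.22 over 14 (Mx1 −0.60 ± 0.33), the immediate early list −0.07 over 11 (Fos −0.16 ± 0.83) and the proliferation list −0.10 over 9 (Mki67 −0.22 ± 0.31). The epididymis and testis lists had medians of −2.52 over 5 and −0.61 over 3 tested members, with SE as large as 3.90 for Lcn5. The reference genes Gapdh and Hprt1 had −0.14 ± 0.13 and 0.04 ± 0.15. Across all 27 lists, 2 of 323 distinct tested symbols were called, S100a9 and Fkbp5. By comparison, the groups did not overlap with higher values in HDM rats at 3.18% of all symbols and with lower values at 2.93%. Those shares were, for example, 3 of 24 adipocyte genes higher and 4 of 17 glucocorticoid-induced genes lower. Since the lists were chosen with earlier results of these data known, such counts do not test them.

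**Figure D4:**
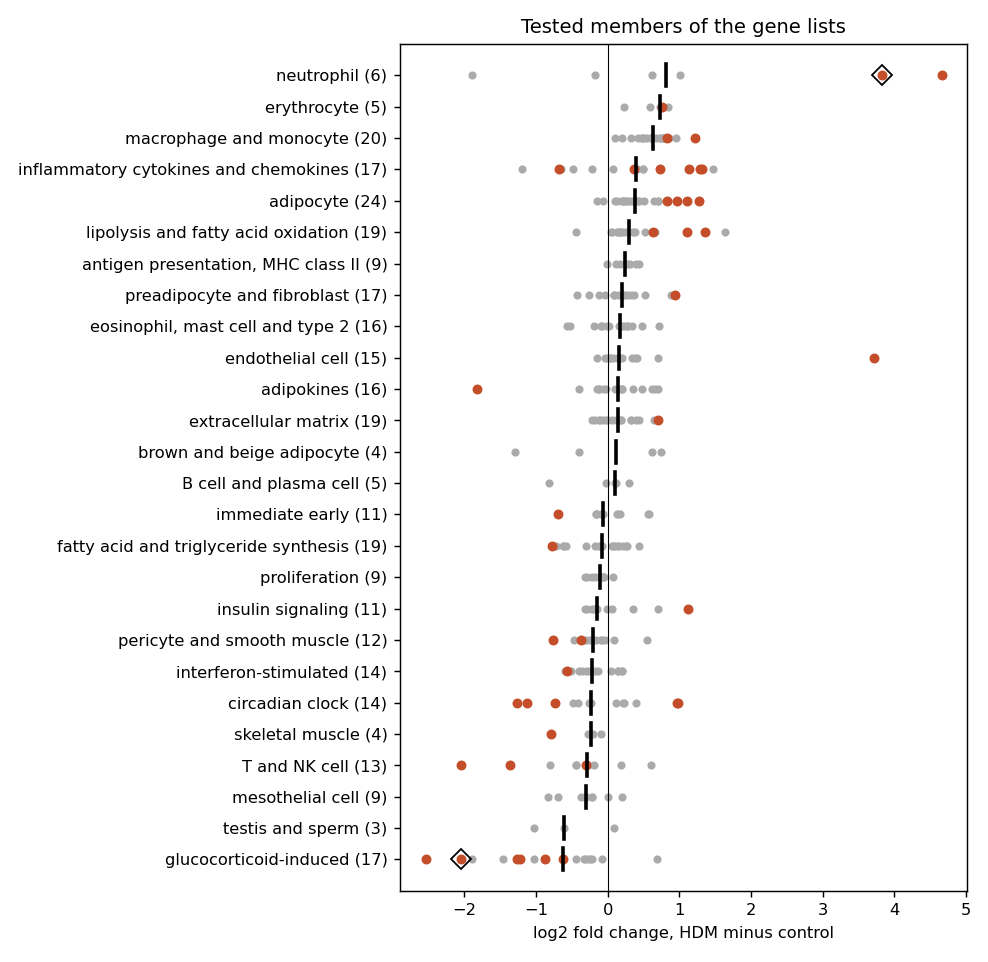
Log2 fold change (HDM minus control) of each tested member of 26 gene lists, with the number tested in brackets and the epididymis list left out for scale. Points are genes, red where the unadjusted p was below 0.05, black bars are list medians and diamonds the called genes. The medians run from −0.62 (glucocorticoid-induced) to 0.81 (neutrophil), and S100a9 and Fkbp5 are the called genes.

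Scaling and the arrays with epididymis transcripts moved the list medians. Under median scaling 9 lists with a negative median turned to 0 or above, namely fatty acid synthesis, insulin signaling, pericyte, T and NK cell, interferon-stimulated, clock, skeletal muscle, immediate early and proliferation genes. The glucocorticoid-induced, epididymis, testis and mesothelial lists stayed negative, and the lists with a positive median stayed positive. In the fits that left out 1 rat, the glucocorticoid-induced median lay between −0.72 and −0.53. Without HDM rat 1 and control rat 1 the endothelial and type 2 medians turned negative (−0.04 and −0.12) and the immediate early median positive (0.25). All other lists kept their sign. Among these, the neutrophil, macrophage, cytokine and glucocorticoid-induced medians were 0.50, 0.52, 0.27 and −0.97. With the epididymis score as a covariate, the preadipocyte, extracellular matrix, endothelial, type 2 and B cell medians were below 0, and the testis and immediate early medians were above 0.

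**Figure D5:**
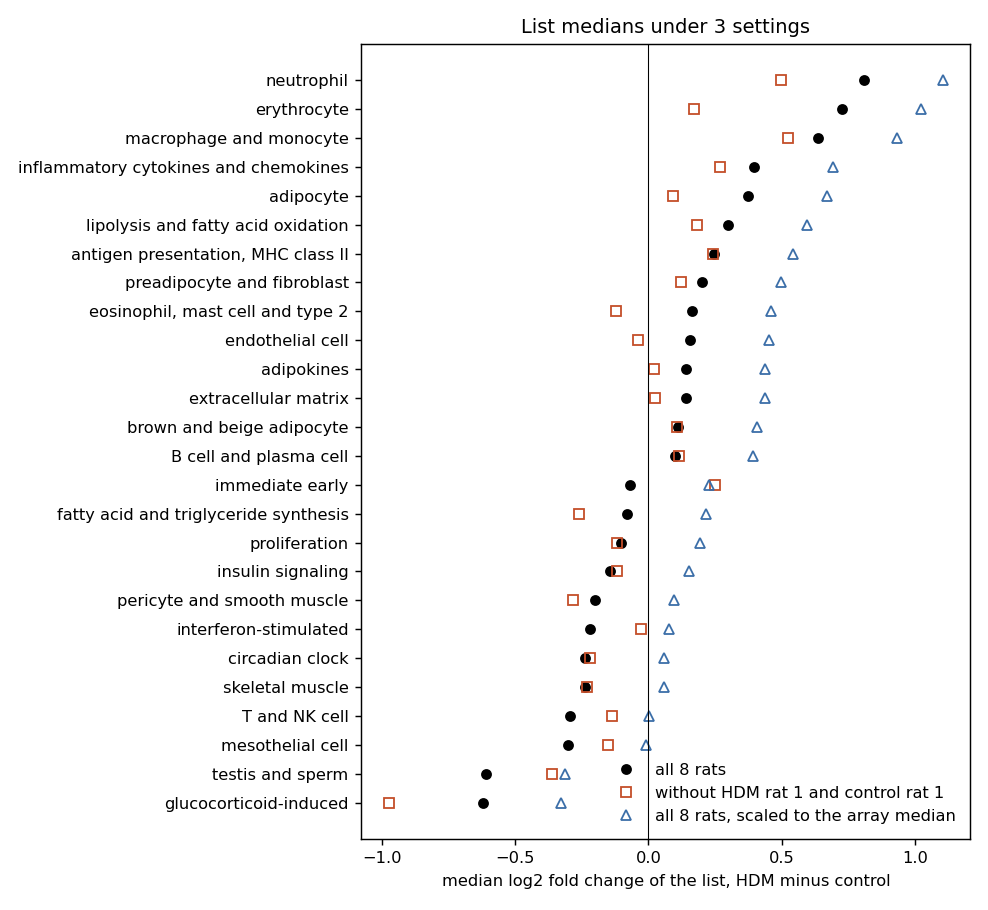
Median log2 fold change (HDM minus control) of 26 gene lists with all 8 rats, without HDM rat 1 and control rat 1, and with all rats scaled to the median of each array. Median scaling shifts every list upward, and the glucocorticoid-induced list is the lowest of the 26 in each case, at −0.62, −0.97 and −0.33.

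Position on the slide followed the groups in part. The upper row held HDM rats 1 to 4, and row 2 held HDM rat 5 with the 3 control rats. Within row 2, with 1 HDM rat that is assumed to vary like the controls, the log2 fold change of S100a9 was 3.29 and that of Fkbp5 −2.07, and no probe was called by limma (526 had an unadjusted p below 0.05). With the row as a block in the fit of all 8 arrays no probe was called either, and the smallest adjusted p was 0.827. The part of the slide position in the results was not tested beyond these fits.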

How the data were processed

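RNA of the adipose tissue of 8 rats was hybridized to a 1-color Agilent rat array, 1 array per rat, from 50 ng of RNA labeled with Cy3. The authors deposited spot intensity values on a linear scale from Agilent Feature Extraction 12.0.3.1, which subtracted the background but did not normalize between arrays, and a table of log2 values per the labels from GeneSpring GX. In 99.8% of adipose cells the deposited log2 values lay within 0.1 of values computed here for this check, and 27 cells without a number were left out. For the check outlier spots were kept and each probe was centered on its median over the adipose arrays, unlike in the main fit.

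From the processed intensity, control and outlier spots were left out, log2 values of the spots of a probe were averaged, and the 75th percentile of each array was subtracted. A missing value at 189 tested probes was left missing, so the fit of those probes used fewer rats (Hprt1, Plin4 and Scd lack HDM rat 2). Probes well above background on all arrays of at least 1 group were tested with limma 3.58.1 in R 4.3.3 (packages data.table, version 1.17.8, and jsonlite, version 2.0.0). The p-values were adjusted by Benjamini-Hochberg over 23293 probes, and a probe was called at an adjusted p below 0.05 and a fold change above 1.5. For probes above background in 1 group only, the bright group was set against the higher of the dim signal and the lowest signal marked as well above background, per array. The fit was tested on simulated data with known changes. Plots used matplotlib 3.10.9 and Python 3.11.15.

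Genes were named through RefSeq accessions and a table of GRCr8 genes for 21229 probes, and through a supplementary table of the study for 8 probes, 2 of the 3 Stfa2l2 probes shown among them. Crisp1 is the RefSeq symbol of a gene with the older symbol Crisp4. The probe with the highest mean level stands for a gene. No genome coordinates are given, since the build of the array design is not given in the sources used here. Probe sequences are those of the array design.

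Of the genes named, 10 each way came from non-overlapping probes past 1.5-fold, first the called characterised genes and then others in order of unadjusted p. They are therefore not the 10 largest changes. Also named are 14 fixed genes, and per list the called and the first 3 tested members. Further list members were chosen after their values were seen. A member of the adipokine list is not reported here by name. The lists and the rule were chosen with earlier results of these data known. Alternatives covered the test, adjustment, filter, scaling, background correction, array weights, leaving out rats, slide row, epididymis score and replicate number. The fits without HDM rats 1 and 2 and control rat 1 and within slide row 2 were chosen after seeing the data. The number of arrays limits the precision.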

Additional observations from a re-analysis of the deposited data

Results flagged for a closer look

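Among the 97 named genes, 11 had an HDM rat that stood apart from the other 4, by the gap to its nearest neighbor divided by the range of the 5 rats, and chance gives about 1 in 20. HDM rat 1, an array with epididymis transcripts, stood apart in 7 of them. It was higher for Lcn12 (gap 0.773 of the range, 2.88 against 0.02 to 0.67) and Prm1 (0.747), an epididymis and a sperm gene. It was lower for Tnf (0.929, −2.39 against −0.78 to −0.66), Pi16 (0.793), Tnnt3 (0.787), Ebf2 (0.757) and Tsc22d3 (0.747, 3.12 against 3.78 to 4.01). HDM rat 2 was higher for Pax5 (0.903, 0.94 against −0.26 to −0.14) and Stfa2l2 (0.875, −1.53 against −2.32 to −2.23). HDM rat 3 was higher for Zfp608 (0.93) and Isg15 (0.755).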

How the results depend on the processing

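The 5 probes and 4 symbols called gave 0 and 0 with the methods' t-test (2204 probes at an unadjusted p below 0.05), with limma treat (284), without the filter on dim probes (4515), without HDM rat 1 and control rat 1 (1965), with the slide row as a block (506), within slide row 2 (526) and with a replicate block (3508). The same-numbered pairs correlated at 0.72, 0.27 and 0.08, and the pair at 0.72 joins the 2 arrays with epididymis transcripts. These values, taken as deviations from group means with 3 control rats, cannot decide whether the replicate numbers pair the rats. Leaving out 1 rat in turn gave 0 to 4 probes and 0 to 3 symbols. Adjusting only over probes past 1.5-fold, which picks probes by the change that is tested, gave 212 probes and 85 symbols. Array weights gave 20 and 13, and the epididymis score 10 and 8. Probes above background on all 8 arrays gave 3 probes, normexp with quantile normalization 2 probes and 2 symbols, and leaving out HDM rats 1 and 2 and control rat 1 gave 4 probes and 1 symbol, Zbtb16, which is not among the 4 symbols called with all rats. Both probes called under normexp were lower in HDM rats. There the log2 fold change of Stfa2l2, dim in control rats, was 0.72, that of S100a9 2.39 and that of S100a8 2.35, none of them called. Fkbp5 had −2.05 there and was called. The cause of these differences was not tested. Median scaling, scaling to the probes above background, quantile normalization, Gapdh and Hprt1, the deposited table and kept outlier spots gave 5 or 6 probes. In no setting did S100a9, Stfa2l2 or Fkbp5 change direction.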

Other observations

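Transcripts of genes known from a further organ, the liver, also differed between the arrays, and their source was not tested. Of 18 genes of liver-made proteins, a list written after the values were seen and therefore not tested, 16 were highest in HDM rat 1. Ttr, the transthyretin gene, was at 4.58, 0.47, −4.63, −3.48 and 1.89 in HDM rats 1 to 5, and at −2.42, −2.52 and 1.39 in control rats 1 to 3. Fgb, a fibrinogen gene, was at 4.01 in HDM rat 1, 1.91 in HDM rat 5 and 0.63 in control rat 3, and between −4.09 and −0.59 on the other arrays. The mean of the 18 genes was 2.09 in HDM rat 1, 0.23 in HDM rat 5 and −0.29 in control rat 3, and −3.31 to −1.17 in the other rats, with control rat 1 at −2.18. Hp, the haptoglobin gene on the cytokine list, had the same 3 arrays on top, at 6.29, 4.65 and 3.19 against −2.96 to 1.69 elsewhere. Alb and Cyp2e1 were highest in HDM rat 2 and lay between 5.60 and 6.78 and between 0.17 and 2.11 over all rats.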
